A study of Mus musculus with 8 samples.

Results

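The proteasome genes were read across cultured mouse progenitors as all probesets listed with exactly 1 gene whose symbol begins with Psma to Psmg and a digit. The rule gave 56 probesets for 50 genes, of 21789 probesets for 19938 genes listed with 1 gene. Psmc3ip, a meiotic recombination factor, and Psme3ip1, a partner of Psme3, match the rule by name without being subunits, and 1 further probeset, listed with both Psme2b and Psme2, fell outside it. Psma3 had 3 probesets and Psma5, Psmb3, Psmc1 and Psmd2 had more than 1 each. These may read near-identical gene copies, so their levels are uncertain. Psmb8, Psmb9 and Psmb10, the catalytic subunits of the immunoproteasome, are described apart.

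The cells began as lymphoid primed multipotent progenitors (LMPPs) of bone marrow, sorted as negative for lineage markers, Sca+, kit+ and Flt3high. They came from Tcf1-deficient mice, labelled Tcf7-/-, or from wildtype mice, labelled Tcf7+/+. Both genotypes belonged to a line backcrossed for approximately 6 generations and kept on a mixed background, and the deletion was not limited to a cell type by any label. All groups shared 4 days on OP9-DL4 stroma, a mouse stromal line that presents the Notch ligand DL4, with Flt3L at 5 ng/ml and IL1, as the labels spell it, at 1 ng/ml. They also shared 20% fetal calf serum in culture. CD45.2+ cells were then sorted as lineage-negative (LN, Mac1- Gr1- Thy1- CD25-) or as T lineage (T, Thy1+ CD25+). LN cells came from 3 mice of either genotype, and T lineage cells, all of them wildtype, were measured in 2 replicates. Deficient progenitors gave no T lineage cells, so genotype could be compared in LN cells alone. The T lineage samples are labelled biological replicates, but whether they came from separate mice is not stated, so their spread may be partly technical. The ages of the mice were not given.

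RNA was amplified from 10 ng per sample, and values are RMA log2 signals, on which 1 unit is a doubling. The targeted gene itself was not analysed here. The T lineage label matched its markers. All 8 of 8 T lineage genes were higher in T than in wildtype LN cells. List means were 9.42 to 10.02 on the T arrays and 6.76 to 6.92 on the wildtype LN arrays. These means include Thy1 and Il2ra, the gene of CD25, which defined the sort, so their rise was fixed in advance. The other genes of the list rose by 0.51 (Bcl11b) to 6.05 (Cd3g). The LN samples, sorted as Mac1- Gr1-, also carried dendritic and myeloid transcripts. Dendritic cell genes averaged 8.95 to 9.19 on deficient LN, 9.11 to 9.41 on wildtype LN and 6.22 to 6.29 on T arrays, and granulocyte and monocyte genes averaged 8.89 to 8.96, 8.86 to 9.48 and 6.45 to 6.75. Levels within the second list were uneven: over all arrays Ly6g read 4.53 to 4.87 and Mpo 10.69 to 11.99. The Gr1 and Mac1 gates select against products of Ly6g and Itgam, so neither gene's level is independent of the LN sort. Of 11 genes in each list, 9 and 8 were lower in T than in wildtype LN cells, and 8 in each were lower than in deficient LN cells. Stromal genes averaged 6.37 to 6.59 over all arrays, and 1 of 8 was lower in T than in deficient LN cells.

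The proteasome is the main protein-degrading machine of the cytoplasm and nucleus. Its barrel-shaped core stacks rings of alpha subunits, which form the gate, on rings of beta subunits, some of which cut the substrate, and a regulatory particle of base and lid recognises, unfolds and feeds in ubiquitin-tagged proteins. In immune cells, and in other cells after interferon-gamma, Psmb8, Psmb9 and Psmb10 are built into new particles in place of Psmb5, Psmb6 and Psmb7. This changes which peptides are made for MHC class I molecules, and the activator PA28, made of Psme1 and Psme2, is induced with them.

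Promoter sequence from RefSeq (GRCm38.p6) was matched for 42 of the 50 genes, in 46 windows from 250 bases before to 50 after a transcription start. The stretches below are shown because they hold, in capitals, the motif each regulator class is known for beside the genes whose values are compared. For the immunoproteasome and PA28 these are a gamma-activated sequence (TTCNNNGAA) in Psmb8 at chr17:34198072-34198131 on the plus strand, and, in 30 bases of Psme1 at chr14:55578493-55578522 on the plus strand, an interferon response element (GAAANNGAAA, here on the opposite strand) that begins 9 bases after the start. Psmb9, Psmb10 and Psme2 had matched windows and held neither motif.
Psmb8: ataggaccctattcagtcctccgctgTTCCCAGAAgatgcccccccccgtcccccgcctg
Psme1: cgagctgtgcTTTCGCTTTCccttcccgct

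The constitutive partners Psmb5 (chr14:54618009-54618068, minus strand) and Psmb6 (chr11:70525297-70525356, plus strand) held the antioxidant response element core TGACNNNGC, letters bound by the Nfe2l1 family. Psmb7 had no matched window.
Psmb5: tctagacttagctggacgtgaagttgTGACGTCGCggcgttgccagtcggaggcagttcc
Psmb6: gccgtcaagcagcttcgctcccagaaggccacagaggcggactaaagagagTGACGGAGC

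Among the members that were higher in T lineage cells, Psmb3 (chr11:97703246-97703305, plus strand) held the interferon response element letters and Psmg1 (chr16:95991151-95991210, minus strand) the gamma-activated ones. Psmd9, not shown, also held the interferon response element letters. Psmc1, Psmc5 and Psme3 held neither, and Psmd3, Psmd7 and Psmg2 had no matched window.
Psmb3: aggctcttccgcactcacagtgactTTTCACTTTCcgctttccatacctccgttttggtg
Psmg1: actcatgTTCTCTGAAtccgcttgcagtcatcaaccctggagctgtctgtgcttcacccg

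Psmb9 and the peptide transporter gene Tap1 are read in opposite directions from starts 225 bases apart, and this is the whole stretch between them (chr17:34187331-34187555, shown on the plus strand), with its CCAAT box in capitals.
Psmb9-Tap1: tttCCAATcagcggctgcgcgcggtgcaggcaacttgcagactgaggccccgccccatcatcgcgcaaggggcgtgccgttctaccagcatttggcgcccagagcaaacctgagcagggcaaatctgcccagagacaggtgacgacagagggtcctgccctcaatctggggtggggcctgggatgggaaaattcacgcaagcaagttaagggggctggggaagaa

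Searched on both strands, TGACNNNGC was found in 13.0% of the member windows and in 12.4% of all 32851 windows of the table. GAAANNGAAA was found in 10.9% of member windows (Psmb3, Psmd4, Psmd9, Psme1 and Psmg4) and 3.44% of all windows, TTCNNNGAA in 6.52% (Psmb8, Psmd2 and Psmg1) and 8.3%, CCAAT in 34.8% and 37.4%, and the E-box CACGTG in 10.9% and 7.15%. None of these motifs is contained in another, but their free positions (N) allow matches to overlap, and a match describes letters only.

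Proteasome genes were among the brighter signals in every sample. On all 8 arrays, 50 of 56 probesets lay above the array's 75th percentile, and the mean over arrays passed 10 for 43 of them. Psma8, the alpha subunit of the testis proteasome, had a mean of 6.09, and Psmb11, the thymoproteasome subunit of cortical thymic epithelium, 6.37. These were the dimmest members, and no detection call was used, so a dim signal is not taken as absence. Replicates were close: the pooled SD within groups had a median of 0.06 over the members and 0.10 over all probesets.

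Loss of Tcf1 left proteasome gene expression in LN cells without a called difference. None of the 56 probesets was higher or lower in deficient than in wildtype LN cells (limma, Benjamini-Hochberg adjusted p under 0.05), none had an unadjusted p under 0.05, and the smallest adjusted p was 0.999. In this comparison 0.00459% of all probesets were called, a single one, and 1071 of 21789 had an unadjusted p under 0.05. The median member difference was -0.00335 (-0.00747 over all probesets). The 95% intervals of members reached from -0.40 to 0.39. All lay within 1 log2 unit of 0, as did those of 99.8% of all probesets. That bound is wide, since all 56 members also met it in both T comparisons, where some were called. The spread of member differences ran from -0.19 for Psmg3, a core assembly chaperone, to 0.18 for Psme3.

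Psme3, the nuclear activator subunit also called PA28 gamma, had the smallest p of the members here. It read 10.51, 10.52 and 10.66 in deficient and 10.48, 10.22 and 10.45 in wildtype LN cells. The deficient arrays all lay above the wildtype ones, and the difference of 0.18 (SE 0.09) had an unadjusted p of 0.0580. Psmg3 read 8.26, 8.56 and 8.36 against 8.49, 8.64 and 8.60, and these groups overlapped. Over all members, the deficient arrays lay wholly above the wildtype ones for 3 probesets (5.36%; Psmb8, Psmc1, Psme3) and wholly below for 2 (3.57%; Psmb1, Psmb7), beside 3.93% and 6.01% of all probesets.

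T lineage cells carried more of several proteasome transcripts than wildtype LN cells, by less than 1 log2 unit in every case. Of 56 member probesets 7 were higher (12.5%) and none lower, beside 7.66% of all probesets called higher and 10.4% called lower, 18% in either direction. The 7 were Psmb3, Psmc1, Psmc5, Psmd3, Psmd7, Psme3 and Psmg1, each from a different part of the particle or its assembly except for the ATPase pair and the lid pair. In a sorted population, fewer cells with a transcript and less of it per cell cannot be told apart. Against deficient LN cells, which differ from the T cells in genotype as well as lineage, 7 were again higher (12.5%) and none lower, beside 5.98% and 8.16% of all probesets, 14.1% in either direction. Both comparisons use the same T arrays.

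The count rests on few arrays. Without wildtype LN replicate 3, 5 of 56 members were higher than in wildtype LN cells, beside 5.66% of all probesets. These were Psmb3, Psmc1, Psmc5, Psme3 and Psmg1. Without deficient LN replicate 1, 1 of 56 was higher than in deficient LN cells (Psmc1), beside 3.75% of all probesets. Leaving out a T replicate leaves 1 T array, which is then assumed to vary like the other groups. Fewer members, and a smaller share of all probesets, were then called in either T comparison. Psmc1 was called in both comparisons under all 15 alternative settings run.

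As a body, the members sat slightly above LN cells in both T samples. The median member difference was 0.12 against either LN group, where the median over all probesets was 0.04. Taken against the wildtype LN mean, the median member deviation was 0.11 and 0.10 on the T arrays and -0.02 to 0.04 on the 6 LN arrays. The T arrays did not overlap the wildtype LN arrays for 30 probesets that lay above them (53.6%; 28% of all probesets) and 3 below (5.36%; 19.8% of all). Against deficient LN these were 29 above (51.8%; 23.6% of all) and 4 below (7.14%; 17.1% of all). Both T arrays lay above all 6 LN arrays for 26 probesets (46.4%; 17.7% of all probesets) and below all 6 for Psma1 and Psme2 (3.57%; 14.3% of all). Most shifts were small: 53 of 56 were under 0.5 in size against wildtype LN cells.

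**Figure D1:**
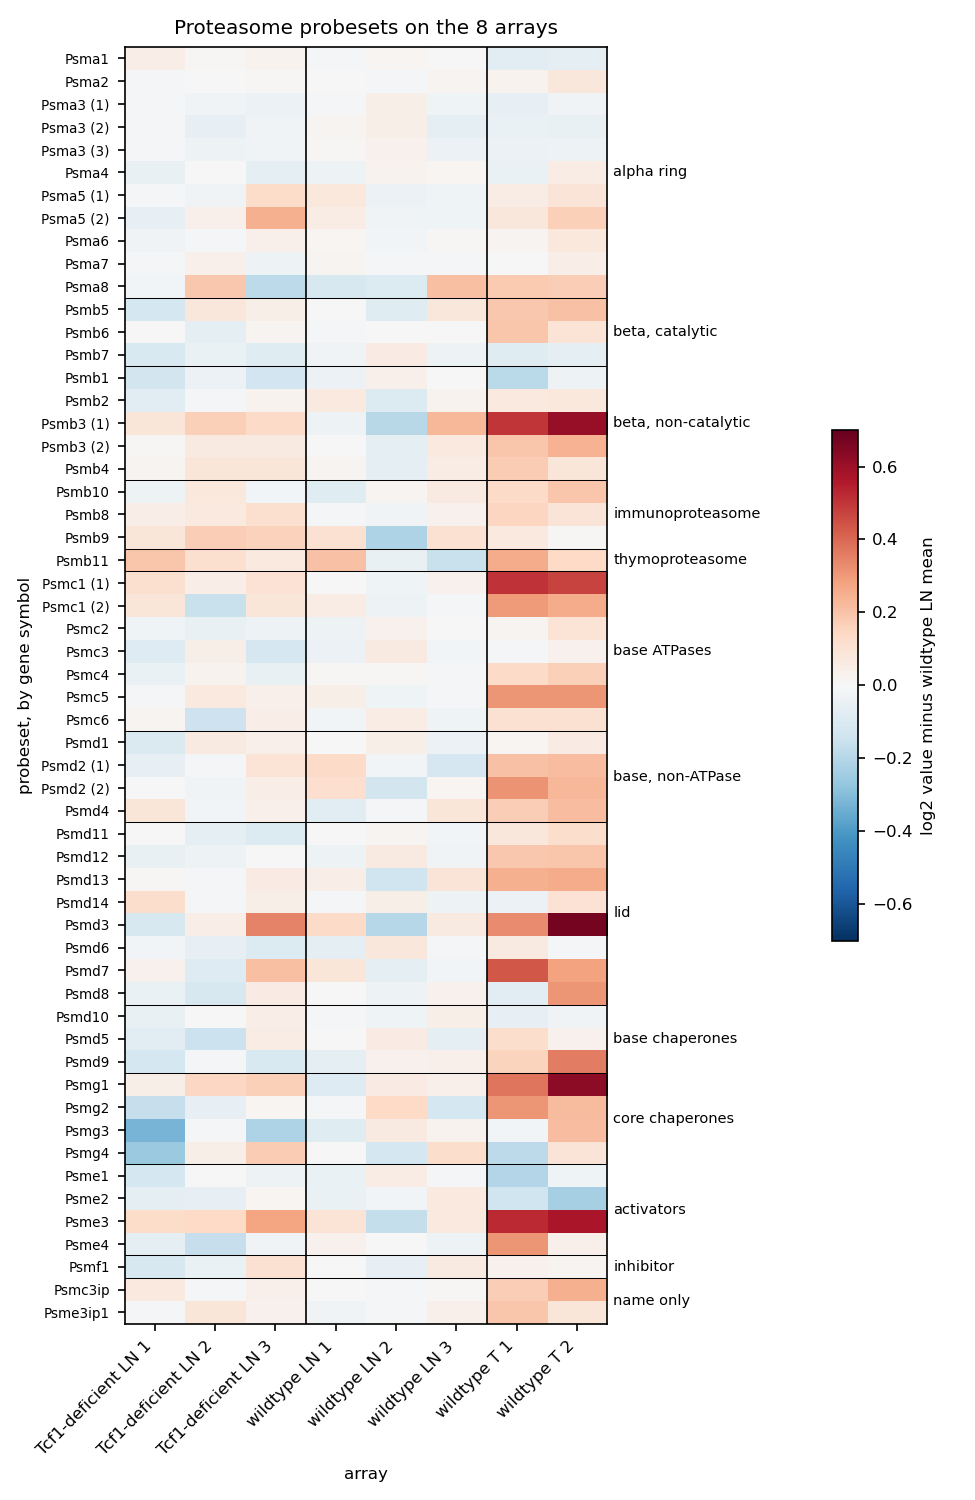
Each row is a proteasome probeset and each column 1 of the 8 arrays; colour gives the log2 value minus the wildtype LN mean of that probeset, red for higher and blue for lower, grouped by role. The 2 T lineage columns are reddest for Psmb3, Psmc1, Psme3, Psmg1 and Psmd3, and the alpha ring rows stay pale.

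The immunoproteasome subunits were not called in any comparison. Psmb8, which takes the place of the chymotrypsin-like Psmb5, read 11.09, 11.12 and 11.16 in deficient LN, 11.04, 11.02 and 11.08 in wildtype LN and 11.19 and 11.13 in T lineage cells. Both T arrays lay above the wildtype LN arrays but overlapped the deficient ones, and all 8 values spanned less than 0.2. The T minus wildtype LN difference was 0.12 (SE 0.07, 95% interval -0.04 to 0.28, limma adjusted p = 0.311), and T minus deficient LN was 0.04 (adjusted p = 0.762).

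Psmb9, which replaces the caspase-like Psmb6, read 11.69, 11.77 and 11.76 in deficient LN, 11.71, 11.39 and 11.71 in wildtype LN and 11.67 and 11.61 in T lineage cells. Wildtype LN replicate 2 stood apart at the low end, and the other 7 arrays lay close together. T minus wildtype LN was 0.04 (SE 0.10, 95% interval -0.19 to 0.27, limma adjusted p = 0.85) and -0.07 without that array; deficient minus wildtype LN was 0.14, and 0.03 without it. T minus deficient LN was -0.10 (adjusted p = 0.594), with both T arrays below the deficient ones.

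Psmb10, which replaces the trypsin-like Psmb7, read 8.98, 9.09 and 9.002 in deficient LN, 8.94, 9.04 and 9.08 in wildtype LN and 9.15 and 9.21 in T lineage cells. Both T arrays were above all LN arrays. The difference was 0.16 against either LN group (SE 0.08; limma adjusted p = 0.198 against wildtype and 0.24 against deficient LN), and the interval against wildtype LN was -0.01 to 0.34.

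The constitutive partners were not called either. Psmb5 read 11.25, 11.46 and 11.42 in deficient LN, 11.38, 11.29 and 11.46 in wildtype LN and 11.57 and 11.59 in T lineage cells, a difference of 0.20 from each LN group (limma adjusted p = 0.157 and 0.175). Psmb6 read 11.37, 11.31 and 11.40, then 11.37, 11.38 and 11.38, then 11.57 and 11.47, with differences of 0.14 and 0.16 (adjusted p = 0.224 and 0.194). For both genes the T arrays lay above every LN array. Psmb7 read 11.56, 11.62 and 11.58 in deficient LN, 11.65, 11.72 and 11.64 in wildtype LN and 11.58 and 11.60 in T lineage cells, so that the T arrays were below the wildtype ones (-0.08, adjusted p = 0.526) and level with the deficient ones.

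Subtracting the constitutive from the immune subunit within each array gave no common direction. From wildtype LN to T lineage cells the difference moved by -0.08 for Psmb8 minus Psmb5, by -0.10 for Psmb9 minus Psmb6 and by 0.24 for Psmb10 minus Psmb7. From deficient LN to T it moved by -0.16, -0.26 and 0.16. These shifts describe unequal change and were not tested, and signals of different probesets do not rank the transcripts.

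**Figure D2:**
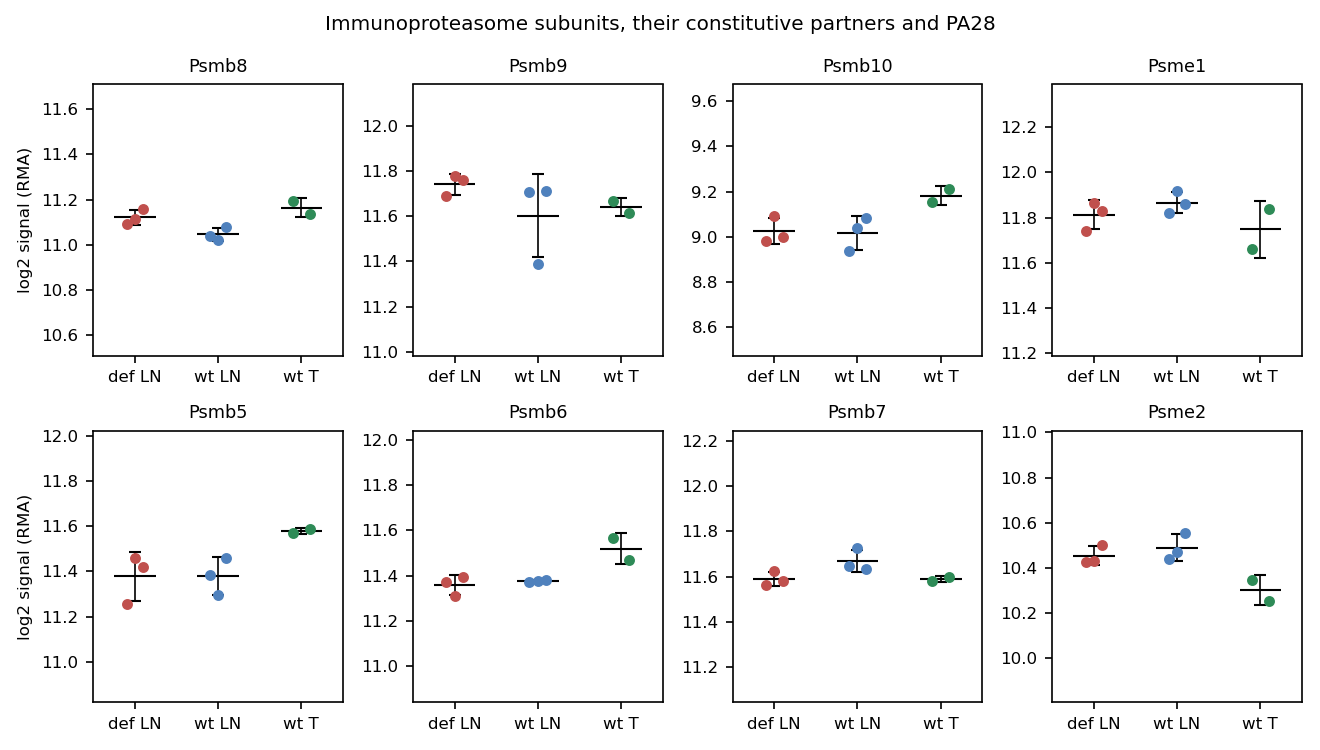
Each panel plots the log2 RMA signal of 1 gene on each array for deficient LN (red, n = 3), wildtype LN (blue, n = 3) and wildtype T (green, n = 2); horizontal lines are means and bars SD, and each panel has its own axis range of equal height. Panels of Psmb8, Psmb9 and Psmb10 stand above those of their partners Psmb5, Psmb6 and Psmb7. Both T points lie above every LN point for Psmb10, Psmb5 and Psmb6, and T overlaps LN for Psmb8, Psmb9 and Psmb7. Wildtype LN replicate 2 of Psmb9 is at 11.39, and Psme2 has both T points lowest.

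The PA28 subunits leaned the other way from most members. Psme2 read 10.43, 10.43 and 10.50 in deficient LN, 10.44, 10.47 and 10.56 in wildtype LN and 10.35 and 10.26 in T lineage cells. Both T arrays were lowest, at -0.19 against wildtype LN (SE 0.08, 95% interval -0.36 to -0.02, limma adjusted p = 0.13) and -0.15 against deficient LN (adjusted p = 0.242). Psme1 read 11.74, 11.87 and 11.83, then 11.82, 11.92 and 11.86, then 11.66 and 11.84, with T overlapping both LN groups (-0.12, adjusted p = 0.395 against wildtype LN).

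The probeset listed with both Psme2b and Psme2, outside the rule, read 10.61, 10.50 and 10.55 in deficient LN, 10.54, 10.74 and 10.76 in wildtype LN and 10.22 and 10.22 in T lineage cells. It was lower in T than in wildtype LN cells by the fit over all 35399 probesets (-0.46, limma adjusted p = 0.0146), and at -0.33 against deficient LN cells its adjusted p was 0.0628. It cannot be assigned to 1 of the 2 genes.

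Of the other activators, Psme3 (PA28 gamma) was called in both T comparisons and Psme4 in neither. Psme3 was higher in T lineage cells, at 10.90 and 10.96 against 10.48, 10.22 and 10.45 in wildtype LN and 10.51, 10.52 and 10.66 in deficient LN cells. The T arrays overlapped neither LN group, and the differences were 0.55 (SE 0.10, 1.46-fold, limma adjusted p = 0.00224) and 0.37 (adjusted p = 0.0264). The call against wildtype LN held in all 15 alternatives; against deficient LN it was lost without deficient LN replicate 1 or 2 or either T replicate (adjusted p = 0.0788, 0.0618, 0.0865 and 0.136), and with all 35399 probesets adjusted over (0.0698). Psme4, the large activator PA200, was at 0.17 against wildtype LN cells (adjusted p = 0.252), and Psmf1, the inhibitor PI31, at 0.03 (adjusted p = 0.878).

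In the alpha ring none of 11 probesets for 8 genes was called in any comparison, and T minus wildtype LN ran from -0.07 (Psma1) to 0.18 (the dim Psma8). Psma1 was the member of the ring with both T arrays lowest, at 11.81 and 11.82 against 11.88 to 11.93 on the LN arrays. Psma7, a gate subunit with the brightest member signal, read 12.51 to 12.60 over all 8 arrays, a span under 0.1.

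Among the non-catalytic beta subunits, Psmb3 had the largest rise of all members. Its first probeset read 10.28, 10.36 and 10.33 in deficient LN, 10.16, 10.00 and 10.43 in wildtype LN and 10.70 and 10.81 in T lineage cells. The T arrays were above every LN array, by 0.56 against wildtype LN (SE 0.11, 1.47-fold, limma adjusted p = 0.00578) and 0.43 against deficient LN (adjusted p = 0.0284). Without T replicate 2 the first adjusted p was 0.0507, and the second comparison lost its call without any 1 of the 3 deficient LN or 2 T arrays (adjusted p = 0.0503 to 0.16), or with all 35399 probesets adjusted over (0.0840).

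The second Psmb3 probeset lay in the same direction and was not called: 10.91, 10.96 and 10.97, then 10.90, 10.84 and 10.97, then 11.10 and 11.15, with a difference of 0.22 from wildtype LN (adjusted p = 0.0697). Psmb1, Psmb2 and Psmb4 lay between -0.11 and 0.13 and were not called.

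The base of the regulatory particle holds a ring of ATPases that unfold the substrate. Psmc1 gave the smallest p of all members: its first probeset read 11.67, 11.60 and 11.66 in deficient LN, 11.56, 11.53 and 11.58 in wildtype LN and 12.06 and 12.03 in T lineage cells. The gap between T and LN arrays was several times the spread within any group. T was higher by 0.49 than wildtype LN (SE 0.07, 1.40-fold, limma adjusted p = 0.000685) and by 0.40 than deficient LN (adjusted p = 0.00299). Its second probeset lay 0.28 above each LN group (adjusted p = 0.0555 and 0.0684).

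Psmc5 read 11.92, 12.00 and 11.97 in deficient LN, 11.98, 11.90 and 11.92 in wildtype LN and 12.24 on both T arrays. It was higher by 0.31 and 0.28 (limma adjusted p = 0.0122 and 0.0251). Without T replicate 1 or 2 the first adjusted p was 0.0672 or 0.0652, and the second call was lost without deficient LN replicate 1 or 3 or either T replicate (0.0593 to 0.114), and with only the 2 groups fitted (0.0648). The other ATPases Psmc2, Psmc3, Psmc4 and Psmc6 lay between 0.01 and 0.15 against wildtype LN cells and were not called. The non-ATPase base subunits, among them Psmd4, a receptor for ubiquitin chains, and the scaffold Psmd2, lay between 0.04 and 0.27, with the smallest adjusted p at 0.0529.

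The lid removes ubiquitin chains through Psmd14, which works as a pair with Psmd7. Psmd7 read 10.74, 10.63 and 10.93 in deficient LN, 10.80, 10.65 and 10.70 in wildtype LN and 11.15 and 11.00 in T lineage cells. The T arrays were highest, by 0.36 against wildtype LN (limma adjusted p = 0.0317) and 0.31 against deficient LN, where it was not called (adjusted p = 0.0714). Psmd14 itself lay at 0.03 (adjusted p = 0.853). The Psmd7 call was lost without wildtype LN replicate 2 or 3 or either T replicate (adjusted p = 0.0975, 0.0858, 0.216 and 0.0528), and with all 35399 probesets adjusted over (0.0766).

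Psmd3, a lid scaffold with a dimmer and more variable signal, read 7.58, 7.74 and 8.04 in deficient LN, 7.83, 7.49 and 7.75 in wildtype LN and 8.02 and 8.36 in T lineage cells. The T arrays cleared the wildtype LN arrays but overlapped the deficient ones. T was higher than wildtype LN by 0.50 (SE 0.15, limma adjusted p = 0.0427), a call lost without deficient LN replicate 2, wildtype LN replicate 2 or 3, or T replicate 2 (adjusted p = 0.0611, 0.131, 0.0757 and 0.281), and with all 35399 probesets adjusted over (0.114). Against deficient LN it was not called (0.41, adjusted p = 0.107). Of the 8 lid subunits 2 were higher than in wildtype LN cells and none than in deficient LN cells, beside 7.66% and 5.98% of all probesets.

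Assembly of the core begins with dedicated chaperones, of which the Psmg1 and Psmg2 pair builds the alpha ring. Psmg1 read 10.22, 10.32 and 10.34 in deficient LN, 10.09, 10.23 and 10.21 in wildtype LN and 10.55 and 10.80 in T lineage cells. No groups of T and LN arrays overlapped, and T was higher by 0.50 (SE 0.09, limma adjusted p = 0.00372) and 0.38 (adjusted p = 0.0203). The second call was lost without deficient LN replicate 1 or T replicate 2 (adjusted p = 0.0665 and 0.185), and with all 35399 probesets adjusted over (0.0582).

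Its partner Psmg2 read 9.58, 9.68 and 9.75, then 9.72, 9.88 and 9.62, then 10.05 and 9.96. The T arrays were again highest, by 0.34 against deficient LN (limma adjusted p = 0.0372) and by 0.27 against wildtype LN, not called (adjusted p = 0.0803). The call was lost without any 1 of 5 arrays (adjusted p = 0.0571 to 0.203): deficient LN replicate 1 or 2, wildtype LN replicate 1, or either T replicate. It was also lost with array weights (0.0619) and all 35399 probesets adjusted over (0.0882), and in all held in 7 of 15 alternatives. The second pair, Psmg3 and Psmg4, lay at 0.10 and -0.05 against wildtype LN and was not called.

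The base has chaperones of its own. Psmd9 read 8.27, 8.38 and 8.29 in deficient LN, 8.32, 8.42 and 8.43 in wildtype LN and 8.54 and 8.75 in T lineage cells. It was higher than in deficient LN cells by 0.34 (limma adjusted p = 0.0249) and lay 0.26 above wildtype LN cells (adjusted p = 0.0665). The call was lost without deficient LN replicate 1 or 3 or T replicate 2 (adjusted p = 0.0731, 0.068 and 0.208), with only the 2 groups fitted (0.0592) and with all 35399 probesets adjusted over (0.0604). Psmd5 and Psmd10 lay at 0.08 and -0.04 and were not called.

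**Figure D3:**
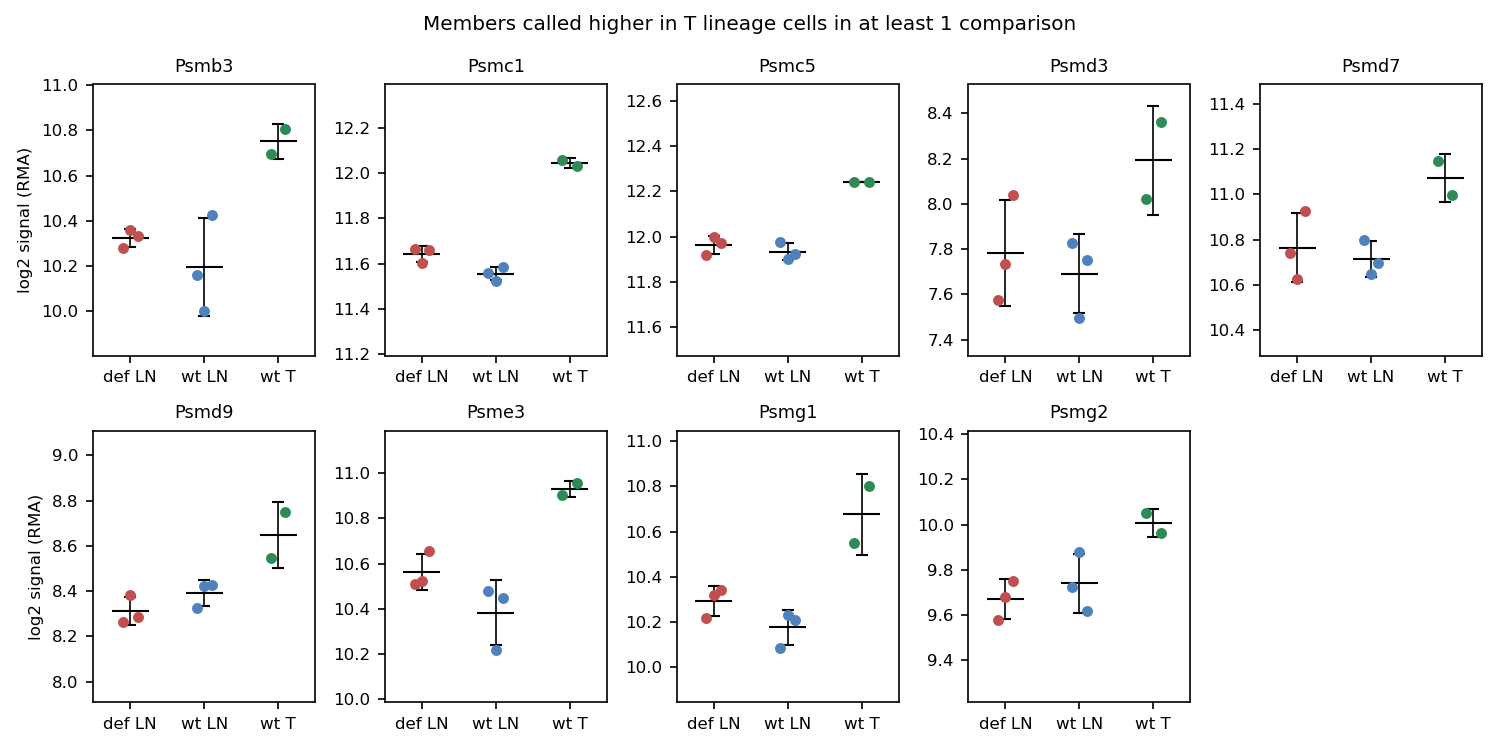
Each panel plots the log2 RMA signal of a member called in at least 1 T lineage comparison, by array, for deficient LN (red, n = 3), wildtype LN (blue, n = 3) and wildtype T (green, n = 2), with mean and SD. The T points lie above every LN point in 8 of the 9 panels; in Psmd3 T replicate 1, at 8.02, overlaps the deficient LN arrays.

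**Figure D4:**
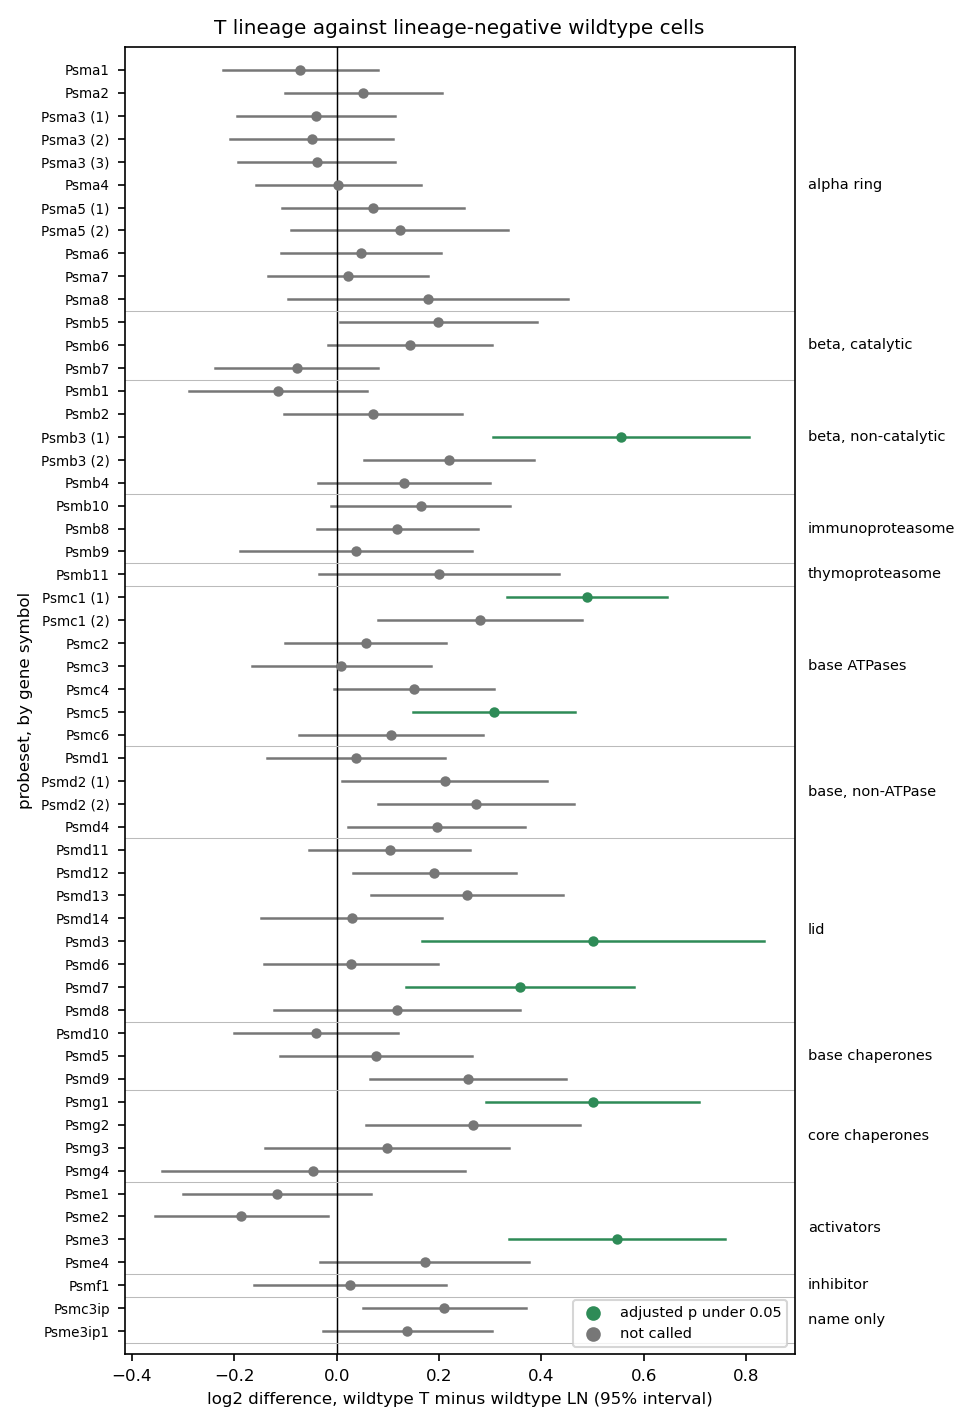
Points give the T minus wildtype LN log2 difference of each proteasome probeset with its 95% interval, grouped by role; green marks the 7 called probesets. Called points run from 0.31 (Psmc5) to 0.56 (Psmb3), and the immunoproteasome, alpha ring and constitutive catalytic rows hold none.

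Genes around the proteasome were read from lists of accessory factors, ubiquitin genes, MHC class I peptide supply and regulators; the small counts below stand beside 7.66% of all probesets higher and 10.4% lower than in wildtype LN cells, and 5.98% and 8.16% against deficient LN cells. None was called between deficient and wildtype LN cells. Of 8 measured assembly and accessory genes none was called in the T comparisons. Of 9 ubiquitin and shuttle genes 2 were higher than in wildtype LN cells, Rad23b (0.32, limma adjusted p = 0.0184) and Ubqln4 (0.38, adjusted p = 0.0291), both of which carry ubiquitinated proteins to the proteasome. Ubqln4 was also higher than in deficient LN cells (0.41, adjusted p = 0.0237).

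Of 12 genes of the class I peptide pathway, 3 were higher than in wildtype LN cells (7.66% of all probesets) and none lower (10.4%). Lap3, a leucine aminopeptidase, read 8.90, 9.003 and 9.16 in deficient LN, 8.93, 9.05 and 8.9975 in wildtype LN and 9.41 and 9.64 in T lineage cells, a rise of 0.53 (limma adjusted p = 0.00364) and of 0.50 from deficient LN (adjusted p = 0.00633). The chaperone Calr rose by 0.34 (adjusted p = 0.0304) and the transporter subunit Tap2 by 0.34 (adjusted p = 0.0498), whereas Tap1, which shares the printed promoter stretch with Psmb9, lay at -0.15 (adjusted p = 0.256). Tapbpl, a peptide editor, was lower than in deficient LN cells (-0.38, adjusted p = 0.0216).

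Of 9 measured regulator genes, 2 fell in T lineage cells in both comparisons, Irf8 and Ifngr2. Irf8, a transcription factor of myeloid and dendritic cells, read 10.55, 10.48 and 10.36 in deficient LN, 10.67, 10.25 and 10.72 in wildtype LN and 7.25 and 7.81 in T lineage cells, so it fell by 3.02 (limma adjusted p = 8.8e-07). Ifngr2, a chain of the interferon-gamma receptor, read 9.03, 8.9955 and 9.06, then 9.15, 9.31 and 9.39, then 7.29 and 7.14, so it fell by 2.07 (adjusted p = 1.58e-07). Both were lower in T than on every LN array. Ifngr1, the other chain of that receptor, lay at -0.15 and was not called (adjusted p = 0.586).

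Irf1 had 2 probesets at 0.05 and -0.08 (adjusted p = 0.739 and 0.497), and Nfe2l1, which drives proteasome genes when degradation fails, lay at -0.02 (adjusted p = 0.932). Nlrc5, the class I transactivator, had 19 probesets between -0.32 and 0.51 against wildtype LN cells with none called; 1 was higher than in deficient LN cells (0.40, adjusted p = 0.0408).

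Psmb8 and Psmb9 lie in the class II region of the MHC on chromosome 17, beside the genes of class II antigen presentation. In RefSeq order, with neighbours taken by position after values had been seen, H2-Oa, H2-DMa, H2-Ob, H2-Ab1, H2-Aa and H2-Eb1 were lower in T than in wildtype LN cells by limma, at -1.16, -1.84, -1.78, -4.81, -5.37 and -3.33. H2-Eb2 (0.17) and Brd2 (-0.05) were not called. Of the block of peptide genes between them, Psmb9, Tap1 and Psmb8 were not called and Tap2 was higher (0.34, adjusted p = 0.0498). H2-Aa and H2-Ab1 are among the dendritic cell markers, and the part of the dendritic and myeloid content of the LN cells in the proteasome differences was not tested.

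**Figure D5:**
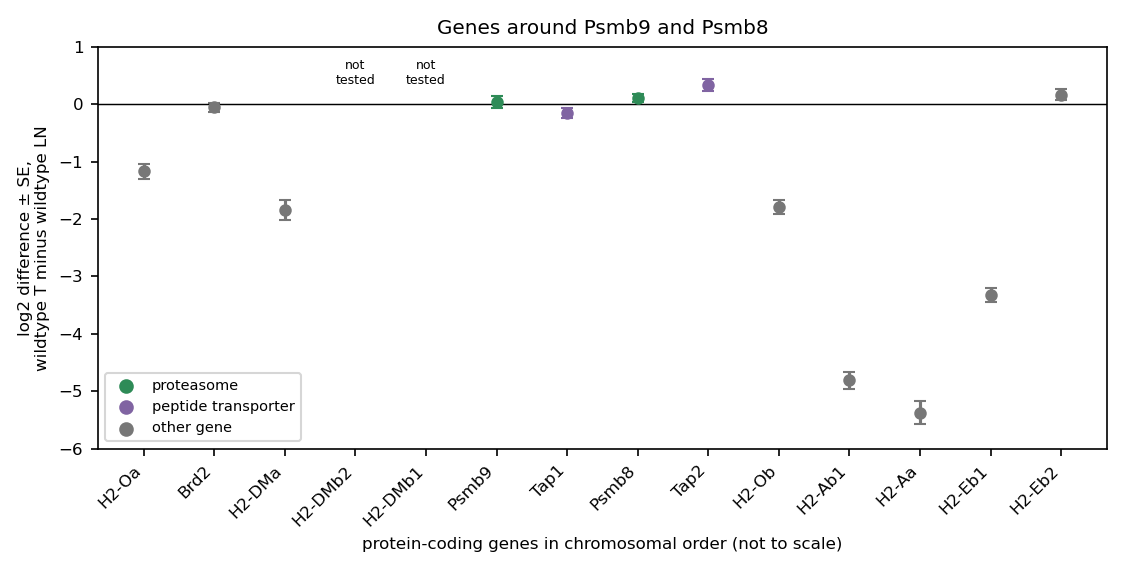
Points give the T minus wildtype LN log2 difference with its SE for protein-coding genes around Psmb9 and Psmb8, in chromosomal order and not to scale; 2 genes had no probeset of 1 gene. Class II genes reach down to -5.37 (H2-Aa), with H2-Eb2 at 0.17; Psmb9 lies at 0.04, Tap1 at -0.15, Psmb8 at 0.12 and Tap2, called higher, at 0.34.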

How the data were processed

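RNA from 8 sorted cell samples was hybridised to 1-colour arrays, after amplification per the labels' protocols. The deposited log2 values were normalized by the authors with RMA in Partek 6.5, per the submitters' processing notes; the array's genome build is not given in the sources used here. Of 35399 probesets, 11989 had no gene in the platform annotation and 1621 several, and the 21789 with 1 gene were tested. A linear model with 3 group means was fitted to all 8 arrays by lmFit, with eBayes moderation (limma 3.58.1, R 4.3.3), which leaves 5 residual degrees of freedom; tests were two-sided, with Benjamini-Hochberg adjustment over all tested probesets and calls at 0.05. Precision is limited by how few arrays there were. The code of the fit was run on simulated data with independent noise, which does not bear on the calls made here. Members and lists were chosen with earlier results of these data known. Named were the immunoproteasome and PA28 subunits with their partners, up to 5 called members per direction and comparison (the 3 of smallest p where fewer than 3 were called), and up to 3 called genes per list; other members named here, Psmc5, Psmd7 and Psmg2 among them, were chosen after their values were seen. Alternatives were 8 left-out arrays, median centring, a second quantile normalization, a filter on the dimmest 40%, a replicate block, fits of 2 groups, array weights and all probesets.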

Additional observations from a re-analysis of the deposited data

How the results depend on the processing

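No member was called between deficient and wildtype LN cells, and none was called lower in T lineage cells, under any of the 15 alternatives. Of the other counts, members higher in T than in wildtype LN cells numbered 7, and 14 after a second quantile normalization (10.2% of all probesets higher) and 13 of 54 without the dimmest 40% (13% of all); leaving out single arrays gave 3 to 8. Members higher in T than in deficient LN cells numbered 7, and 11 without the dimmest 40% (10.6% of all) and 2 with all 35399 probesets in the adjustment; leaving out single arrays gave 1 to 7. The cause of these moves was not tested, beyond the smaller or larger number of probesets adjusted over. Across the alternatives that kept all arrays, the median member difference stayed between 0.10 and 0.14 in both T comparisons, and between deficient and wildtype LN cells it was -0.00335, with 0.00673 after median centring, 0.00775 after the second quantile normalization and 0.00904 with array weights. Whether replicate numbers pair the samples could not be settled from so few arrays. Deviations from the group means correlated at -0.13, 0.02 and 0.04 between same-numbered deficient and wildtype LN arrays. Between same-numbered wildtype LN and T arrays the values were 0.16 and 0.12, and between deficient LN and T arrays -0.14 and -0.25. With 2 T arrays the deviations mirror each other, so every LN array had the same value with opposite sign against the other T array. With the replicate number as a block, 7 and 5 members were higher in the T comparisons, beside 6.79% and 5.27% of all probesets, and 0 differed by genotype. Psmc5 and Psmg2 lost their call against deficient LN cells in that fit (limma adjusted p = 0.0674 and 0.0910). With 2 T arrays and no detection call, dim members such as Psma8 and Psmb11 are limited most.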

Other observations

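Wildtype LN replicate 2 held the lowest of the 8 values for 13 of the 56 member probesets, a larger share than the 12.4% of all probesets. Deficient LN replicate 1 held it for 12 of 56, a share near the 20.6% of all. Deficient LN replicates 2 and 3 held it for 9 and 7 of 56, beside 8.09% and 11.2% of all. Wildtype LN replicates 1 and 3 held it for 4 and 3, beside 7.3% and 13.5%. T replicates 1 and 2 held it for 7 and 1, beside 14.2% and 12.8%. T replicate 2 held the highest value for 24 of 56, a larger share than the 17.9% of all probesets. T replicate 1 held it for 13 of 56, a share near the 23.5% of all. Each LN array held the highest value for 0 to 8 of 56, beside 7.36% to 13% of all.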
